A study of Mus musculus with 14 samples.

Results

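The 40 genes described here carry fatty acids into muscle and through their oxidation, and were chosen by name: uptake (6 genes), activation and thioesterases (4), the carnitine shuttle (5), the beta-oxidation spiral (12), electron transfer (3), fuel switch and uncoupling (6), and lipid droplet and lipolysis (4). All 40 were found among the 49585 genes of the deposited tables. RNA-seq was made from hind limb skeletal muscle of wild-type (WT) mice and of mice labelled as knockouts (KO) of Myf6, a myogenic transcription factor also called MRF4, and from each genotype uninjured and injured muscle was taken. This gives 4 groups of 3 libraries: WT uninjured, KO uninjured, WT injured and KO injured. The kind of injury, the time after it, and the age, sex, strain and knockout allele of the mice are not given in the sources used here. A list of binding peaks of Flag-tagged Myf6 in primary myotubes, cultured muscle fibres grown from satellite cells, came from 1 ChIP library and 1 control. Each RNA library has a number and the letter L (uninjured) or R (injured), and libraries that share a number are read here as 1 animal. No number occurs in both genotypes, and litter or batch cannot be told apart from genotype.

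Muscle burns fatty acids that come from the blood or from its own lipid droplets. Lipoprotein lipase and transporters such as Cd36 bring them in, acyl-CoA synthetases activate them, and the carnitine shuttle moves them into the mitochondrion. There the beta-oxidation spiral shortens them step by step, and electron transfer flavoprotein passes the electrons to the respiratory chain. Slow, oxidative fibres depend on this route more than fast, glycolytic ones.

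Values are in RPM, the reads of a gene per 1000000 reads assigned to genes, and within a group they are given in the order of replicates 1, 2 and 3. Depth ran from 1880087 reads (WT uninjured replicate 2) to 49392472 reads, and 3 reads were worth 0.0607 to 1.6 RPM. Myf6 itself was at 25.0 to 111 RPM in uninjured WT and 1.86 to 3.46 RPM in uninjured KO muscle, and at 47.9 to 121 RPM in injured WT and 2.88 to 3.32 RPM in injured KO muscle. Muscle markers were high in all libraries, at a summed 129906 to 202178 RPM for 10 genes. Markers of macrophages and neutrophils summed to 84.6 to 164 RPM in uninjured WT and 106 to 149 RPM in injured WT muscle, ranges that overlap. In KO muscle they summed to at most 82.4 RPM (uninjured) and to 92.7 to 96.8 RPM (injured), below every WT library of the same state. KO replicate 2 stood apart from KO replicates 1 and 3 in both states: mitochondrially encoded genes took 15.3% (uninjured) and 23.2% (injured) of its reads, against 3.63 to 6.76% in the other 4 KO libraries and 8.35 to 22.3% in WT. Results that rest on it are given with and without it. In whole muscle, fewer cells of a type and less RNA per cell cannot be told apart.

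Of the 40 genes, 34 have an entry in the RefSeq promoter table (GRCm38.p6, the build of the peak list as judged by a scaffold it names). Myf6 peaks lay within 1000 bases of an annotated start for 3 of the 34, Mlycd, Acsl1 and Pdk2, and within 5000 bases for 4, the fourth being Acsl6 (summit at -4084 bases). Among all 27025 genes with an entry, 2.73% had a peak within 1000 bases and 7.61% within 5000. Within 20000 bases the shares were 14 of 34 members and 22.0% of all genes. Peak heights and folds are the authors' own and come from 1 library. The windows below run from 250 bases before to 50 after the start next to each of the 3 peaks, 5′ to 3′ on the gene's strand, and are shown because Myf6 bound nearest to these starts. Capitals mark CAGCTG, an E-box, the type of site that myogenic factors bind.
Mlycd: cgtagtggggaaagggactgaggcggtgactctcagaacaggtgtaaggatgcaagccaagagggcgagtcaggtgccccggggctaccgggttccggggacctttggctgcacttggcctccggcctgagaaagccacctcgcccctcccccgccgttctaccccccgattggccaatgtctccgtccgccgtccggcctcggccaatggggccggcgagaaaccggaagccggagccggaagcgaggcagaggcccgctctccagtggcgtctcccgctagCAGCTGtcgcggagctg
Acsl1: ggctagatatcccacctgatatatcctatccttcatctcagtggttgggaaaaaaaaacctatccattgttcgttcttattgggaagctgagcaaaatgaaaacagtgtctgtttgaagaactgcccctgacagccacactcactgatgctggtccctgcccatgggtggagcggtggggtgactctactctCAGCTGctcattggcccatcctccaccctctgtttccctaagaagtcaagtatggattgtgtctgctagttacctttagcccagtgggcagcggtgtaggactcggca
Pdk2: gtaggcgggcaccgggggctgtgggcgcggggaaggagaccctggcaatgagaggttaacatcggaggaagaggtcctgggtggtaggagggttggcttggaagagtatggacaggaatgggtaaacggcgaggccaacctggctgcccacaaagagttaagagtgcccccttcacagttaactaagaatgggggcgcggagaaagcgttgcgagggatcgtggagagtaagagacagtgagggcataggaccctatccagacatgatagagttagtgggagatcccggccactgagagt
The Mlycd window is chr8:119394644-119394943 on the plus strand and holds the summits of 2 peaks. The nearer peak (chr8:119394861-119394990, 8.12-fold enrichment over control) had its summit 24 bases after the start, and the E-box begins at base 33 after the start. The stronger one (chr8:119394600-119394762, 11.3-fold) had its summit at -219. The Acsl1 window is chr8:46490716-46491015 on the plus strand, at the second of 2 starts in the table, and its E-box begins 58 bases before the start. The Acsl1 peak (chr8:46491074-46491200, 5.97-fold) lay just past the window, with its summit 195 bases after the start. The Pdk2 window is chr11:95040826-95041125 on the minus strand, at the downstream one of 2 annotated starts, and holds no CAGCTG. The Pdk2 peak (chr11:95040536-95040716, 8.77-fold) had its summit 276 bases after that downstream start. CAGCTG, which reads the same on both strands, was found for 11 of the 34 members in at least 1 of their windows (26.2% of 42 member windows, against 16.3% of all 32851). A match is a description of the letters only. A peak of at least 10-fold enrichment lay within 20000 bases of a start for 4 members (6.89% of all genes): Mlycd, Ucp3 (15.1-fold, summit at -7078 bases from the start), Cpt1a (13.5-fold, at 13737) and Acacb (10.7-fold, at -17598).

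In uninjured muscle none of the 39 members tested differed between KO and WT at an adjusted p under 0.05, and in injured muscle none of 40. The test was limma on log2(RPM + 1) with Benjamini-Hochberg adjustment over all genes, and 0.281% of 12460 genes passed in uninjured and 0.269% of 12625 in injured muscle. The exception to the 40 in uninjured muscle was Acot1, which was below the filter of 1 RPM in 3 libraries. In injured muscle Acot1 passed that filter only through its KO libraries. Its count among the genes higher in KO is therefore not independent of the filter. The members closest to the threshold were all higher in KO. At an unadjusted p under 0.05 they were Lipe, Pnpla2 and Pdk2 in uninjured muscle and Ucp2, Cd36, Acot1 and Lipe in injured muscle, which is 3 of 39 and 4 of 40 members, against 3.53% and 5.06% of all genes higher in KO at that level. None was lower in KO at that level, where 10.7% and 5.26% of all genes were. In the authors' deposited table of uninjured muscle, 2 members had a q-value under 0.05, Lipe (0.0102) and Pnpla2 (0.0195), both higher in KO, against 1.43% of all genes with a fold change. In their injured table no member did, against 0.893% of genes. On the recovered reads edgeR called no member in either state, with 9 of 39 and 4 of 40 at an unadjusted p under 0.05. Among all genes edgeR called 0.441% in uninjured and 0.261% in injured muscle, and 16.5% and 10.1% had an unadjusted p under 0.05. DESeq2 on the same reads called 4 members in uninjured muscle (Lipe, Pnpla2, Plin2 and Pdk2) and 2 in injured muscle (Cd36 and Ucp2), all higher in KO, with 10 and 5 at an unadjusted p under 0.05. Among all genes DESeq2 called 5.32% and 3.38%, and 18.0% and 13.3% had an unadjusted p under 0.05. On data simulated for the uninjured comparison alone, without outlier libraries, 11.5% of the genes DESeq2 called had not been changed. That share need not hold for the real libraries.

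All 3 KO libraries were above all 3 WT libraries for 4 of the 39 members in uninjured muscle (Lipe, Ucp2, Crat and Pdk2; 6.20% of all genes) and below them for 2 (Acot2 and Cpt1b; 15.5%). In injured muscle 4 of 40 were above (Lipe, Cd36, Ucp2 and Acot1; 8.29%) and 0 below (8.63%). Acot1 was tested there only because its KO libraries passed the filter. The median log2 difference of the members, KO minus WT, was 0.14 in uninjured muscle, where the median of all genes was -0.18, and 0.33 in injured muscle, where it was 0.01. Positive differences were found for 26 of 39 members (36.8% of all genes) and 31 of 40 (52.0%). The scaling moved the uninjured median between -0.02 (scaled to reads outside mitochondrial genes) and 0.33 (TMM), and moved the median of all genes with it, so that the members stood 0.30 to 0.35 above all genes under the 4 scalings. The medians also depended on single libraries. The uninjured median was -0.12 without KO uninjured replicate 3, -0.06 without WT uninjured replicate 2, 0.06 without KO replicate 1, 0.33 without WT replicate 3 and 0.53 without KO replicate 2. The injured median was 0.11 without KO injured replicate 1, 0.20 without KO replicate 3 and 0.79 without KO replicate 2. On the recovered reads the medians were 0.44 and 0.47 with edgeR and 0.44 and 0.49 with DESeq2. The KO comparisons of the 2 states use libraries of the same animals.

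**Figure D1:**
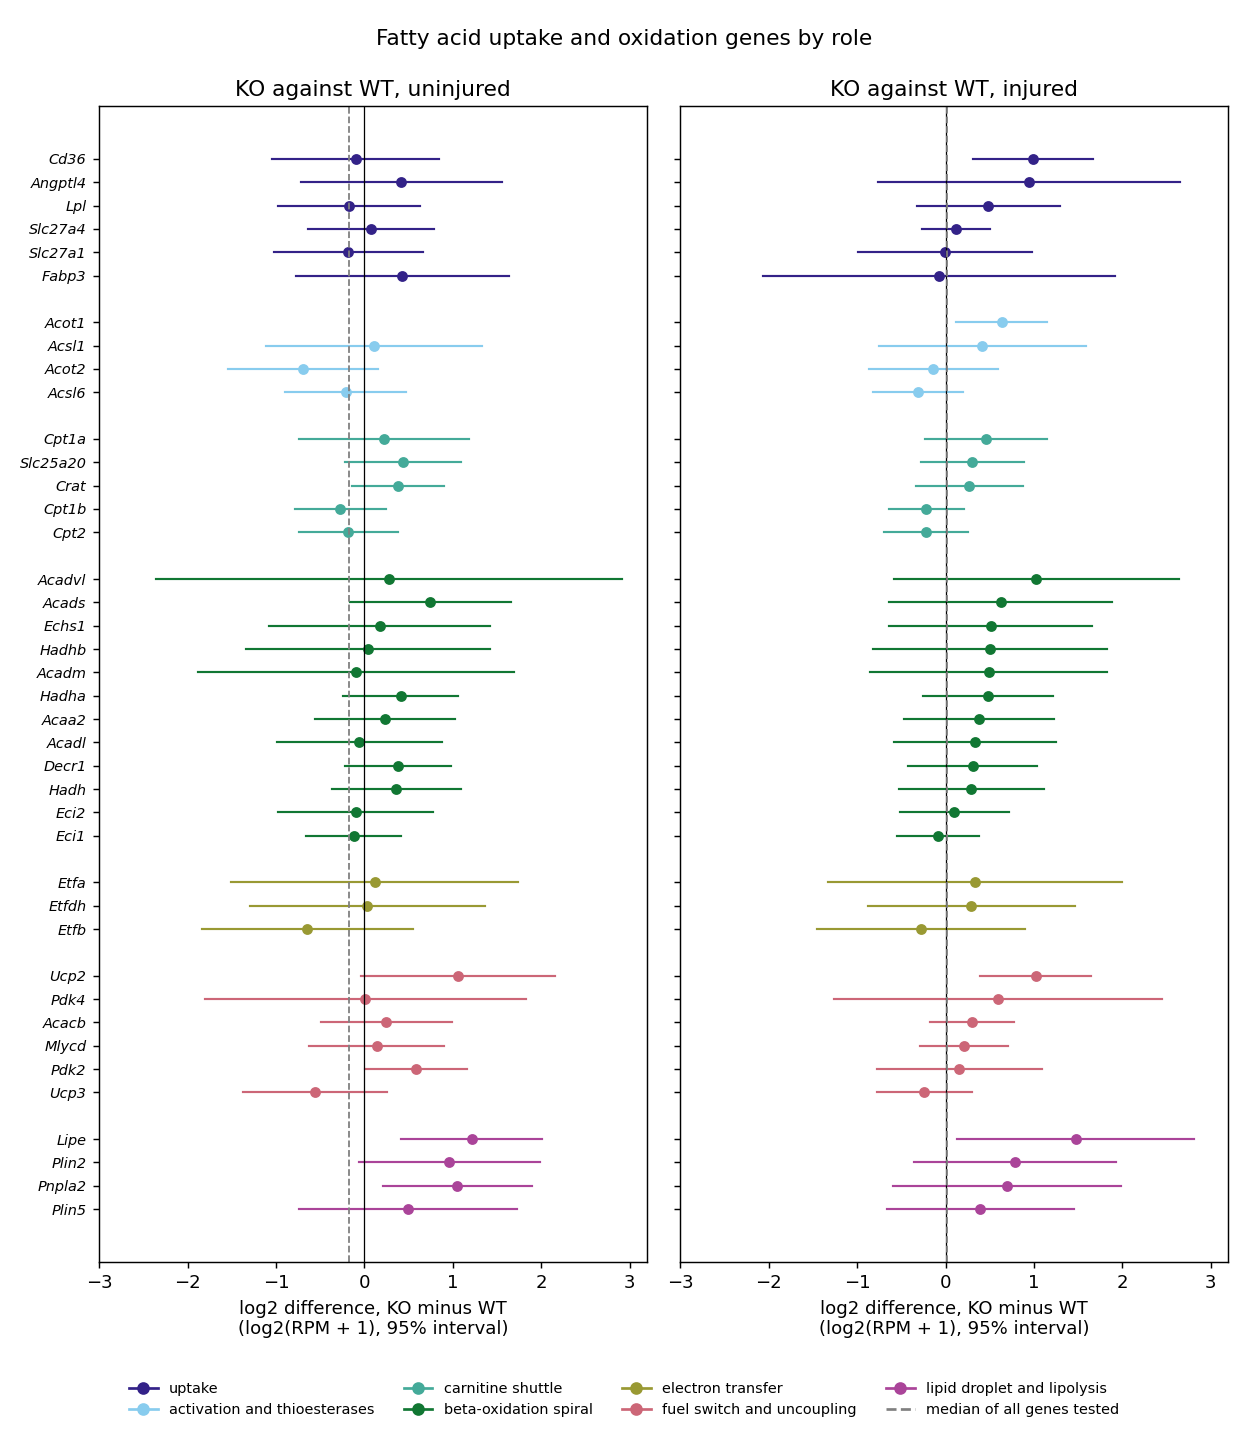
Log2 difference, KO minus WT, of each of the 40 genes in uninjured (left) and injured muscle (right), grouped by role. Points are limma estimates on log2(RPM + 1) and lines their 95% intervals, and the dashed line is the median of all genes tested (-0.18 and 0.01). Acot1 was tested only in injured muscle. Most intervals cross 0, and the 4 lipid droplet and lipolysis genes lie right of 0 in both panels.

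No uptake gene passed the test, and the one nearest to it was Cd36 in injured muscle, the transporter that brings long-chain fatty acids across the cell membrane. Cd36 was at 166, 148 and 231 RPM in uninjured WT, 176, 87.9 and 297 RPM in uninjured KO, 146, 102 and 198 RPM in injured WT and 358, 239 and 269 RPM in injured KO muscle. In injured muscle every KO library was above every WT library, with a log2 difference of 0.99 (SE 0.29, limma adjusted p 0.328). In uninjured muscle the groups overlapped and the log2 difference was -0.10 (95% interval -1.05 to 0.85). The difference between the 2 states, tested as an interaction, had a log2 value of 1.09 and a limma adjusted p of 0.9999. The 8 endothelial markers summed to 316 to 384 RPM in uninjured WT and 363 to 378 RPM in uninjured KO muscle. In injured muscle they summed to 236 to 406 RPM in WT and 378, 738 and 356 RPM in KO. Of the 8, 7 had a positive difference in injured muscle (median 0.42). The adipocyte markers described below had a positive difference there for 9 of 9 (median 1.71). The part of either cell type in the Cd36 values was not tested. Fabp3, the fatty acid carrier of the muscle cytosol, was at 94, 45.2 and 97.2 RPM in uninjured WT, 112, 44 and 207 RPM in uninjured KO, 132, 144 and 57.2 RPM in injured WT and 200.3, 23.2 and 196 RPM in injured KO muscle. It was lowest of all libraries in KO injured replicate 2, and its log2 difference in injured muscle was -0.0766 with all libraries and 0.94 without that one. Slc27a1, a transporter that also activates fatty acids, was at 61.2, 44.1 and 40.5 RPM in uninjured WT, 53.1, 23.9 and 58.1 RPM in uninjured KO, 79.4, 37.2 and 52.5 RPM in injured WT and 89.5, 32.5 and 52.5 RPM in injured KO muscle, with log2 differences of -0.18 and -0.00563. Lpl, Slc27a4 and Angptl4 (an inhibitor of Lpl) had log2 differences of -0.17, 0.0753 and 0.42 in uninjured muscle and 0.48, 0.12 and 0.94 in injured muscle, and limma gave adjusted p values of at least 0.666. Fabp3 overlaps another protein-coding gene, Zcchc17, in the RefSeq annotation, and strand use in the counting is not stated.

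The activation genes are synthetases, which make acyl-CoA, and thioesterases, which undo that step, and none passed the test. Acsl1, the main long-chain acyl-CoA synthetase of muscle and a gene with a Myf6 peak beside a start, was at 85.7, 78.2 and 146 RPM in uninjured WT, 106, 46.4 and 249 RPM in uninjured KO, 103, 111 and 131 RPM in injured WT and 266, 65.4 and 205 RPM in injured KO muscle. KO replicates 1 and 3 were above all WT libraries in injured muscle and replicate 2 was below them, which gives log2 differences of 0.11 and 0.42 (SE 0.49, limma adjusted p 0.812). Acsl6, another synthetase of this family, was at 25.9, 29.8 and 30.01 RPM in uninjured WT, 23, 19 and 33.5 RPM in uninjured KO, 27, 40.1 and 41.7 RPM in injured WT and 25.6, 29.5 and 30.8 RPM in injured KO muscle, with log2 differences of -0.21 and -0.31. Acot2, a mitochondrial thioesterase, was at 12.7, 11.7 and 17.1 RPM in uninjured WT, 9.43, 4.88 and 11.1 RPM in uninjured KO, 13.4, 6.25 and 10.7 RPM in injured WT and 11.2, 6.58 and 8.85 RPM in injured KO muscle. It was lower in all 3 KO libraries in uninjured muscle (log2 difference -0.70, SE 0.38, limma adjusted p 0.437), and the groups overlapped in injured muscle (-0.14). Acot1, its cytosolic paralog, was barely detected, at 0.676, 0.532 and 0.461 RPM in uninjured WT, 0.761, 0 and 0.818 RPM in uninjured KO, 0.6, 0.15 and 0.344 RPM in injured WT and 1.15, 1.11 and 1.05 RPM in injured KO muscle. Its value in WT uninjured replicate 2 is 1 read, under the 1.6 RPM that 3 reads are worth there, and the 0 in KO uninjured replicate 2 allows up to 0.236 RPM (3 reads, counting error only). In injured muscle all KO libraries were above all WT libraries, with a log2 difference of 0.64 (SE 0.22, limma adjusted p 0.404). Only those KO libraries reached the filter of 1 RPM, so this separation is not independent of the filter. Reads can be shared between Acot1 and Acot2, so both levels are uncertain.

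The carnitine shuttle had no member near the threshold in either state. Cpt1b, the muscle form of the enzyme that commits acyl-CoA to the mitochondrion, was at 311, 288 and 268 RPM in uninjured WT, 229.5, 225 and 264 RPM in uninjured KO, 331, 245 and 277 RPM in injured WT and 236, 234 and 259 RPM in injured KO muscle. It was lower in all 3 KO libraries in uninjured muscle by a small amount (log2 difference -0.27, 95% interval -0.78 to 0.24), and the groups overlapped in injured muscle (-0.22). Cpt1a, the form known from liver, was at 16.3, 6.38 and 9.19 RPM in uninjured WT, 15.2, 7.4 and 14.1 RPM in uninjured KO, 16.5, 8.91 and 10.6 RPM in injured WT and 16.1, 21.7 and 12.4 RPM in injured KO muscle, with its highest level in KO injured replicate 2, the library where most members were low. Slc25a20, the carrier that exchanges acylcarnitine for carnitine across the inner membrane, was at 42.4, 39.4 and 55.7 RPM in uninjured WT, 51.1, 55.6 and 82.3 RPM in uninjured KO, 55.9, 51.1 and 44.7 RPM in injured WT and 76.6, 44.1 and 71.9 RPM in injured KO muscle, with log2 differences of 0.44 and 0.30. Cpt2, which turns acylcarnitine back into acyl-CoA inside the mitochondrion, was at 94.4, 113 and 82 RPM in uninjured WT, 81.2, 78.7 and 93.7 RPM in uninjured KO, 116, 79.1 and 96.7 RPM in injured WT and 91.4, 72.1 and 84.9 RPM in injured KO muscle, with differences of -0.18 and -0.22. Crat, which buffers short acyl groups as carnitine esters, was named after its values were seen. It was at 302, 339.9 and 318 RPM in uninjured WT, 440.5, 359 and 458 RPM in uninjured KO, 292, 347 and 348 RPM in injured WT and 465, 276 and 483 RPM in injured KO muscle, above all WT libraries in the 3 uninjured KO libraries (log2 difference 0.38, SE 0.23, limma adjusted p 0.495). Log2 differences of this group stayed between -0.27 and 0.44 in uninjured and between -0.22 and 0.45 in injured muscle.

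In the beta-oxidation spiral 8 of 12 genes had positive differences in uninjured muscle (median 0.20) and 11 of 12 in injured muscle (median 0.43), and none passed the test (limma adjusted p 0.438 or more). Acads, the short-chain dehydrogenase, was at 28, 28.2 and 44.8 RPM in uninjured WT, 54.3, 33.1 and 95.7 RPM in uninjured KO, 33.6, 43.4 and 32.5 RPM in injured WT and 91.1, 21.7 and 88.9 RPM in injured KO muscle. Its log2 difference was the largest of the group in uninjured muscle, 0.75 (SE 0.40, limma adjusted p 0.438), and 0.62 in injured muscle. Acadvl, the very long-chain dehydrogenase that takes the first step on long chains, was at 9.37, 5.85 and 9.62 RPM in uninjured WT, 8.71, 0.551 and 89.1 RPM in uninjured KO, 11.9, 31.8 and 13.4 RPM in injured WT and 63, 11.8 and 62.5 RPM in injured KO muscle. This is the widest spread of the 39 members detected in every library: 7 reads of 12704445 in KO uninjured replicate 2 against 3812 of 42772614 in KO uninjured replicate 3. Its log2 difference was 0.28 in uninjured (95% interval -2.35 to 2.92) and 1.03 in injured muscle (-0.59 to 2.64). Eci1, an isomerase needed for unsaturated chains, was the steadiest member, at 98.9, 95.7 and 116 RPM in uninjured WT, 97.4, 86.7 and 100.2 RPM in uninjured KO, 117, 84.8 and 115 RPM in injured WT and 111, 89.3 and 97.2 RPM in injured KO muscle, and its log2 differences were -0.12 and -0.0855.

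A further 3 members of the spiral were named after their values were seen. Acadm, the medium-chain dehydrogenase, was at 106, 60.6 and 167 RPM in uninjured WT, 102, 25 and 336 RPM in uninjured KO, 96.6, 168 and 119.7 RPM in injured WT and 279, 67.2 and 287 RPM in injured KO muscle. Hadha and Hadhb encode the 2 subunits of the mitochondrial trifunctional protein, and their starts lie 273 bases apart on opposite strands of chromosome 5. Hadha was at 204, 135 and 211 RPM in uninjured WT, 215, 204 and 312 RPM in uninjured KO, 165, 179 and 149 RPM in injured WT and 309, 140.2 and 277 RPM in injured KO muscle. Hadhb was at 95.5, 58 and 136 RPM in uninjured WT, 101, 34.5 and 232 RPM in uninjured KO, 74.6, 114 and 81.9 RPM in injured WT and 222, 47.9 and 187 RPM in injured KO muscle. Both were high in KO injured replicates 1 and 3 and low in KO injured replicate 2, but over the 12 libraries Hadha varied 2.32-fold and Hadhb 6.74-fold. In KO uninjured replicate 2 Hadha was within the WT range, and Hadhb was below all WT libraries. Log2 differences in injured muscle were 0.49 for Acadm, 0.48 for Hadha and 0.50 for Hadhb, with limma adjusted p values of 0.639 to 0.807. The other 6 genes of the spiral (Acadl, Echs1, Hadh, Acaa2, Eci2 and Decr1) varied 2.22- to 4.67-fold over the libraries, and Echs1 overlaps the gene Paox.

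No electron transfer gene passed the test, and the 2 subunits of the flavoprotein had their extremes in opposite libraries. Etfa, the alpha subunit of electron transfer flavoprotein, was at 79.8, 33 and 174 RPM in uninjured WT, 88.9, 31.6 and 207 RPM in uninjured KO, 63, 125 and 76.2 RPM in injured WT and 202, 31.6 and 188 RPM in injured KO muscle. Etfb, the beta subunit, was at 185, 201 and 107 RPM in uninjured WT, 120.2, 205 and 41.4 RPM in uninjured KO, 131, 56 and 93.2 RPM in injured WT and 51, 151 and 49.4 RPM in injured KO muscle. Where Etfa was highest, in KO uninjured replicate 3, Etfb was lowest of all libraries, and Etfb was highest in KO uninjured replicate 2, where Etfa was lowest. Etfdh, the oxidoreductase that takes over the electrons, ranged from 21.9 RPM in KO uninjured replicate 2 to 113 RPM in KO uninjured replicate 3, the same extremes as Etfa. The groups overlapped for all 3 genes in both states. Log2 differences in uninjured and injured muscle were 0.12 and 0.33 for Etfa, 0.0317 and 0.29 for Etfdh, and -0.65 and -0.28 for Etfb, and limma gave adjusted p values of at least 0.625. Etfb overlaps the protein-coding gene Cldnd2 and Etfdh overlaps Ppid, and with strand use not stated their reads may be mixed.

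**Figure D2:**
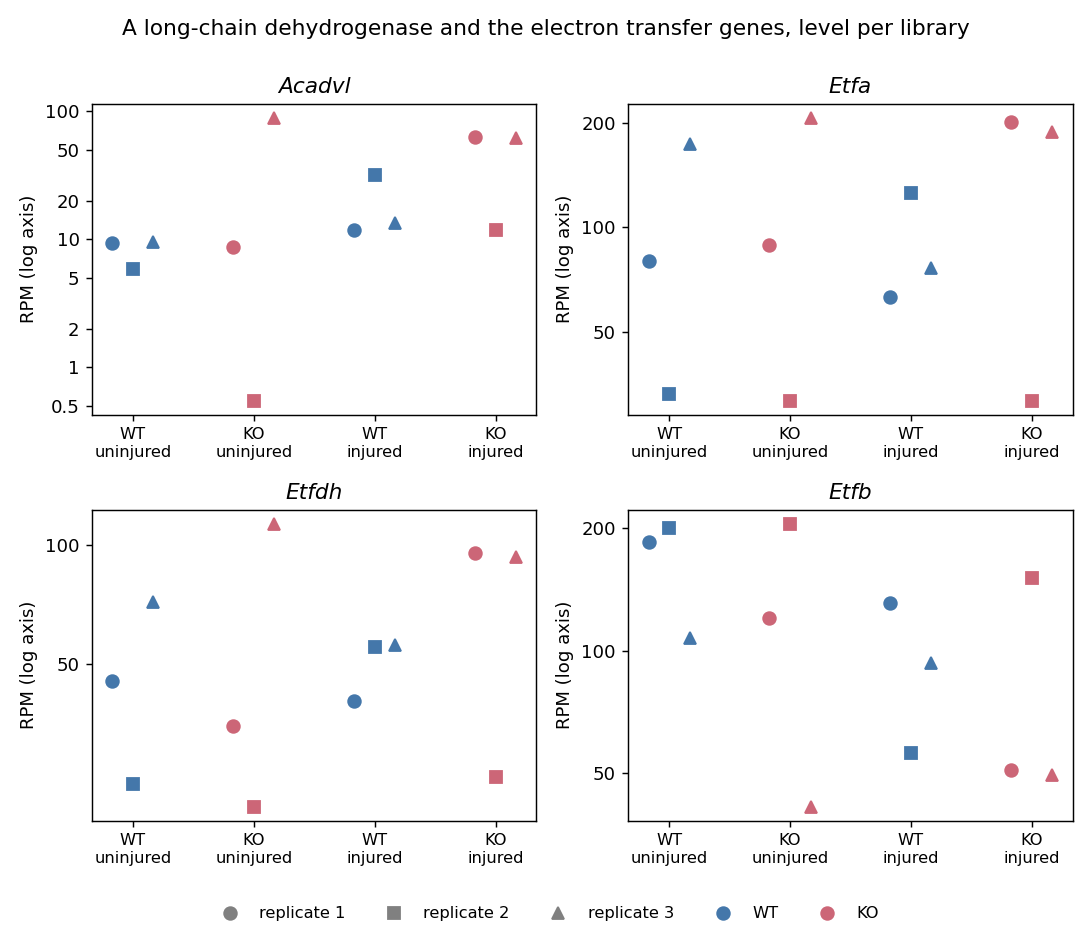
RPM of Acadvl, Etfa, Etfdh and Etfb in each of the 12 libraries, on log axes. Points are single libraries, coloured by genotype and shaped by replicate. KO replicate 2 (squares) is the lowest library of its state for Acadvl, Etfa and Etfdh in uninjured and in injured muscle. For Acadvl in injured muscle it is level with WT replicate 1 (11.8 against 11.9 RPM). It is the highest of its group for Etfb in both states.

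Of the fuel switch and uncoupling genes, Ucp2 had the largest difference in both states, and none passed the test. Ucp2, a mitochondrial carrier of the uncoupling protein family, was at 23.3, 4.79 and 14 RPM in uninjured WT, 27.5, 24.6 and 25.2 RPM in uninjured KO, 19.3, 9.32 and 11.8 RPM in injured WT and 25.5, 28.7 and 27.6 RPM in injured KO muscle. The KO libraries lay between 24.6 and 28.7 RPM, replicate 2 included, and above all WT libraries. The log2 difference was 1.06 in uninjured (SE 0.49, limma adjusted p 0.367) and 1.02 in injured muscle (SE 0.27, limma adjusted p 0.278). The WT value of 4.79 RPM comes from the shallowest library, and without it the uninjured difference was 0.49. Ucp3, the muscle form, was at 132, 104 and 82.4 RPM in uninjured WT, 67.8, 45.2 and 113 RPM in uninjured KO, 159, 98.3 and 98.9 RPM in injured WT and 93.7, 97.2 and 103 RPM in injured KO muscle, with log2 differences of -0.56 and -0.24. Pdk2 and Pdk4 are kinases that switch off pyruvate dehydrogenase and so spare glucose, and both were named after their values were seen. Pdk2, which had a Myf6 peak beside a start, was at 219.9, 209 and 294 RPM in uninjured WT, 327, 324 and 433 RPM in uninjured KO, 221, 319.9 and 231 RPM in injured WT and 373, 150.5 and 404 RPM in injured KO muscle. It was higher in all 3 uninjured KO libraries (log2 difference 0.58, SE 0.26, limma adjusted p 0.346), while the injured groups overlapped (0.16). Pdk4 was at 214, 69.7 and 138 RPM in uninjured WT, 122, 35.5 and 479 RPM in uninjured KO, 339, 148 and 88.6 RPM in injured WT and 487, 76.4 and 412 RPM in injured KO muscle. It spanned 13.7-fold over the libraries, and its 95% interval in injured muscle ran from -1.26 to 2.44. Acacb, which makes the malonyl-CoA that holds back Cpt1, and Mlycd, which removes it and had a Myf6 peak at its start, had log2 differences of 0.25 and 0.14 in uninjured and 0.30 and 0.21 in injured muscle. Mlycd was at 65.5, 71.8 and 82.9 RPM in uninjured WT, 91, 49.4 and 116 RPM in uninjured KO, 81.2, 91.4 and 83.8 RPM in injured WT and 109.8, 74.7 and 117 RPM in injured KO muscle, with overlapping groups.

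The lipid droplet and lipolysis genes had the largest median difference of the 7 roles, 1.01 in uninjured and 0.74 in injured muscle, and all 4 were positive in both. Lipe, hormone-sensitive lipase, was at 23, 31.4 and 49.2 RPM in uninjured WT, 91.3, 55 and 93 RPM in uninjured KO, 30.8, 12.3 and 34.7 RPM in injured WT and 139, 35 and 62.7 RPM in injured KO muscle. KO was above WT in every library of each state, with means of 34.5 ± 13.4 RPM in WT and 79.8 ± 21.4 RPM in KO (SD, n = 3) in uninjured and 25.9 ± 11.9 RPM in WT and 79 ± 54 RPM in KO (SD, n = 3) in injured muscle. The log2 differences were 1.21 (SE 0.35, limma adjusted p 0.186) and 1.47 (SE 0.57, limma adjusted p 0.445). Pnpla2, the lipase that takes the first fatty acid off a triglyceride, was at 104, 88.8 and 188 RPM in uninjured WT, 288, 163 and 337 RPM in uninjured KO, 105, 136 and 141 RPM in injured WT and 394, 81.3 and 266 RPM in injured KO muscle. In uninjured muscle KO replicates 1 and 3 were above all WT libraries and replicate 2 was within their range (log2 difference 1.05, SE 0.37, limma adjusted p 0.248). In injured muscle replicate 2 was below all WT libraries (0.69, SE 0.54, limma adjusted p 0.701). Plin5, a droplet coat protein of oxidative tissue, was at 11.8, 3.72 and 7.21 RPM in uninjured WT, 10.6, 4.64 and 20.01 RPM in uninjured KO, 12.3, 7.3 and 6.05 RPM in injured WT and 17.4, 5.26 and 14.3 RPM in injured KO muscle. Plin2, a coat protein found on droplets of many cell types and named after its values were seen, was at 30.5, 21.3 and 22.7 RPM in uninjured WT, 60.5, 22.6 and 83.2 RPM in uninjured KO, 33.3, 28.5 and 27.3 RPM in injured WT and 103, 23.6 and 56.4 RPM in injured KO muscle. The Plin2 differences were 0.96 and 0.78, and those of Plin5 0.49 and 0.39, with overlapping groups.

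**Figure D3:**
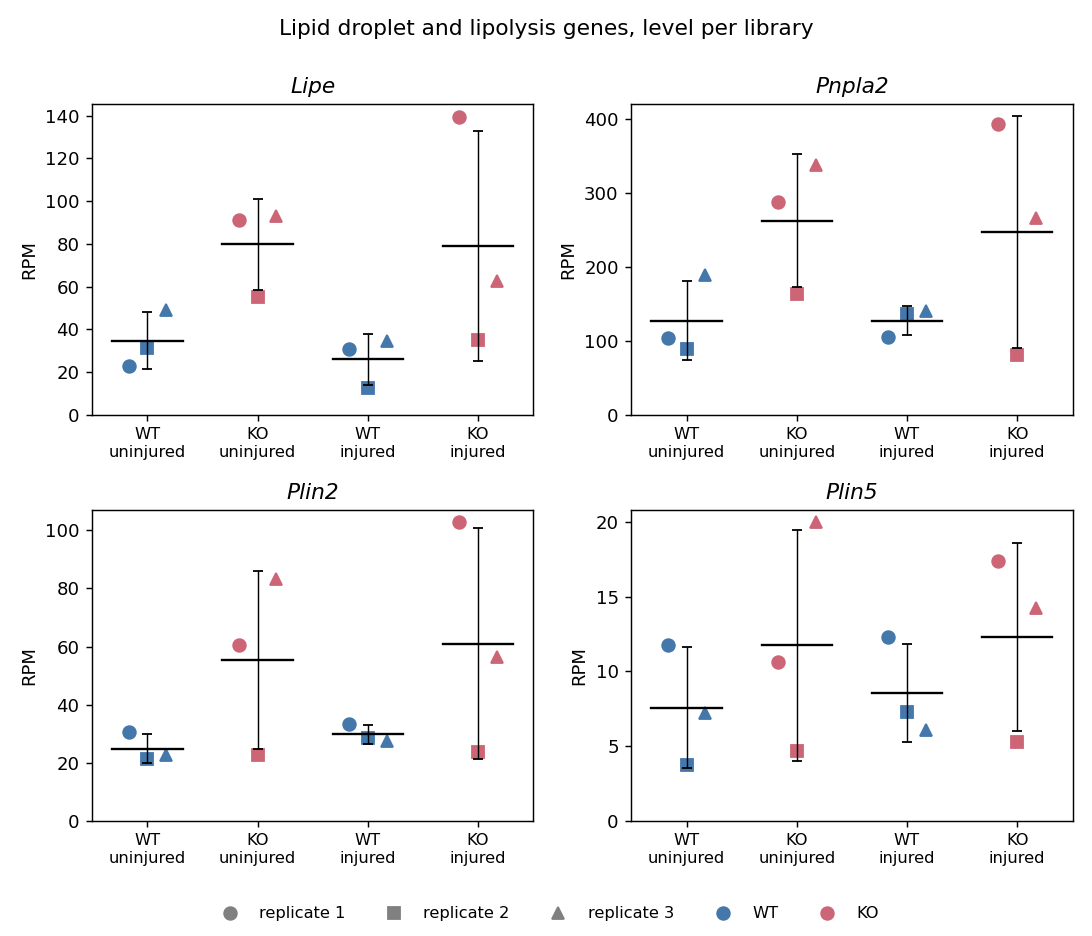
RPM of Lipe, Pnpla2, Plin2 and Plin5 in each library, by group, with the mean (bar) and SD (whiskers, n = 3). Lipe was higher in every KO library than in every WT library of the same state, and the other 3 genes overlapped between genotypes, with KO replicate 2 (squares) the lowest KO library.

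Markers of fat cells and of slow fibres had positive differences too, and their part in the result was not tested. The 9 adipocyte markers had positive differences in both states (median 1.38 and 1.71), with 6 and 4 at an unadjusted p under 0.05 and none called by limma. Among all genes 3.53% and 5.06% were higher in KO at that level. A q-value under 0.05 in the authors' deposited tables was given to 3 of the 9 in uninjured muscle (Lep, Cidec and Pparg) and 2 in injured muscle (Pparg and Plin1). The 9 markers summed to 1231 to 2062 RPM in uninjured WT and 1758 to 3290 RPM in uninjured KO muscle, and 391 to 1347 RPM in injured WT and 1419.8 to 3099 RPM in injured KO muscle. Most of each sum was 1 gene, Fabp4, at 839 to 1439 RPM in uninjured WT and 1073 to 1994 RPM in uninjured KO muscle. In injured muscle Fabp4 was at 327 to 933 RPM in WT and 896 to 1823 RPM in KO. The sums therefore describe mainly Fabp4. None of the 9 was at 0 throughout. Adipoq, which fat cells secrete, was at 21.2, 18.1 and 70.9 RPM in uninjured WT, 132, 37.3 and 105 RPM in uninjured KO, 17.8, 3.97 and 34.4 RPM in injured WT and 172, 24.4 and 74.1 RPM in injured KO muscle. Leptin (Lep) was at 0.869, 1.6 and 1.19 RPM in uninjured WT, 6.89, 6.85 and 16.1 RPM in uninjured KO, 0.9, 0.0749 and 2.6 RPM in injured WT and 7.76, 1.38 and 11.4 RPM in injured KO muscle. Lipe, Pnpla2 and Plin2 are also expressed in fat cells. The 4 brown fat cell markers summed to 12.2 to 60.2 RPM in uninjured WT and 78.3 to 182 RPM in uninjured KO muscle. In injured muscle their sums overlapped, at 3.26 to 39.2 RPM (WT) and 21.2 to 150 RPM (KO). Of the 3 tested in each state, 3 and 2 had positive differences, and limma called none. In the authors' uninjured table Ucp1, 1 of the 4, had a q-value of 0.00435. The 8 markers of slow or oxidative fibres also had positive differences throughout (median 1.13 and 2.21), with 6 and 7 at an unadjusted p under 0.05 and none called by limma. They summed to 1377 to 1850 RPM in uninjured WT and 1881 to 4157 RPM in uninjured KO muscle. In injured muscle the sums were 389 to 1564 RPM in WT and 1816 to 6548 RPM in KO. The authors' tables gave 5 of these 8 a q-value under 0.05 in each state. Markers of fast glycolytic fibres and of skeletal muscle as a whole were also higher in all 3 KO libraries in uninjured muscle. The fast fibre markers summed to 139434 to 162266 RPM in WT and 173193 to 234530 RPM in KO, and the muscle markers to 135721 to 147902 and 179906 to 202178 RPM. In injured muscle both sums overlapped between the genotypes, at 142418 to 177390 (WT) and 144324 to 173657 RPM (KO) for fast fibres and 140455 to 175292 (WT) and 129906 to 176608 RPM (KO) for muscle. Malat1, a nuclear RNA read here as a sign of RNA preparation, was at 240.1, 213 and 284 RPM in uninjured WT, 90.8, 106 and 81.1 RPM in uninjured KO, 264, 494 and 249 RPM in injured WT and 80.4, 288 and 73.4 RPM in injured KO muscle. Malat1, Neat1 and Meg3 together overlapped between the genotypes in both states. They summed to 1643 to 3344 RPM in uninjured WT and 559 to 1826 RPM in uninjured KO muscle. In injured muscle the sums were 2182 to 3048 RPM in WT and 597, 5427 and 609 RPM in KO.

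Without KO injured replicate 2 the count in injured muscle was different. With 2 KO against 3 WT libraries, 19 of 39 members tested (48.7%) passed an adjusted p of 0.05, and all 19 were higher in KO. Among all genes 19.0% of 12312 passed. The library was dropped because these members were low in it, so setting the 2 shares side by side is no test of the members. They were 9 of 12 in the beta-oxidation spiral (Acadvl, Acadm, Acads, Echs1, Hadh, Hadha, Hadhb, Acaa2 and Decr1), 3 of 4 in lipid droplet and lipolysis (Lipe, Pnpla2 and Plin2), 2 of 3 in electron transfer (Etfa and Etfdh), Crat and Slc25a20 of the shuttle, and Cd36, Acsl1 and Ucp2. Acads had the lowest limma adjusted p, 0.00657, with a log2 difference of 1.29 (SE 0.16), followed by Pnpla2 (1.35, SE 0.21, adjusted p 0.0108) and Acsl1 (1.02, SE 0.17, adjusted p 0.0124). The median of the members was 0.79, that of all genes 0.03. Cpt1b, Cpt2, Ucp3, Acsl6 and Eci1 stayed below 0, at -0.01 to -0.33, and Etfb was at -0.80. When any of the other 5 libraries was left out instead, no gene at all passed, members included. In uninjured muscle no member passed without KO uninjured replicate 2 either, where 0.261% of all genes did. The lowest limma adjusted p values there were those of Plin2 (0.0630), Lipe (0.0962) and Pnpla2 (0.112). The members' median was 0.53 (all genes 0.0033). The library was left out because it stood apart from its group in these genes, so this fit is a description of the other 5 libraries.

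**Figure D4:**
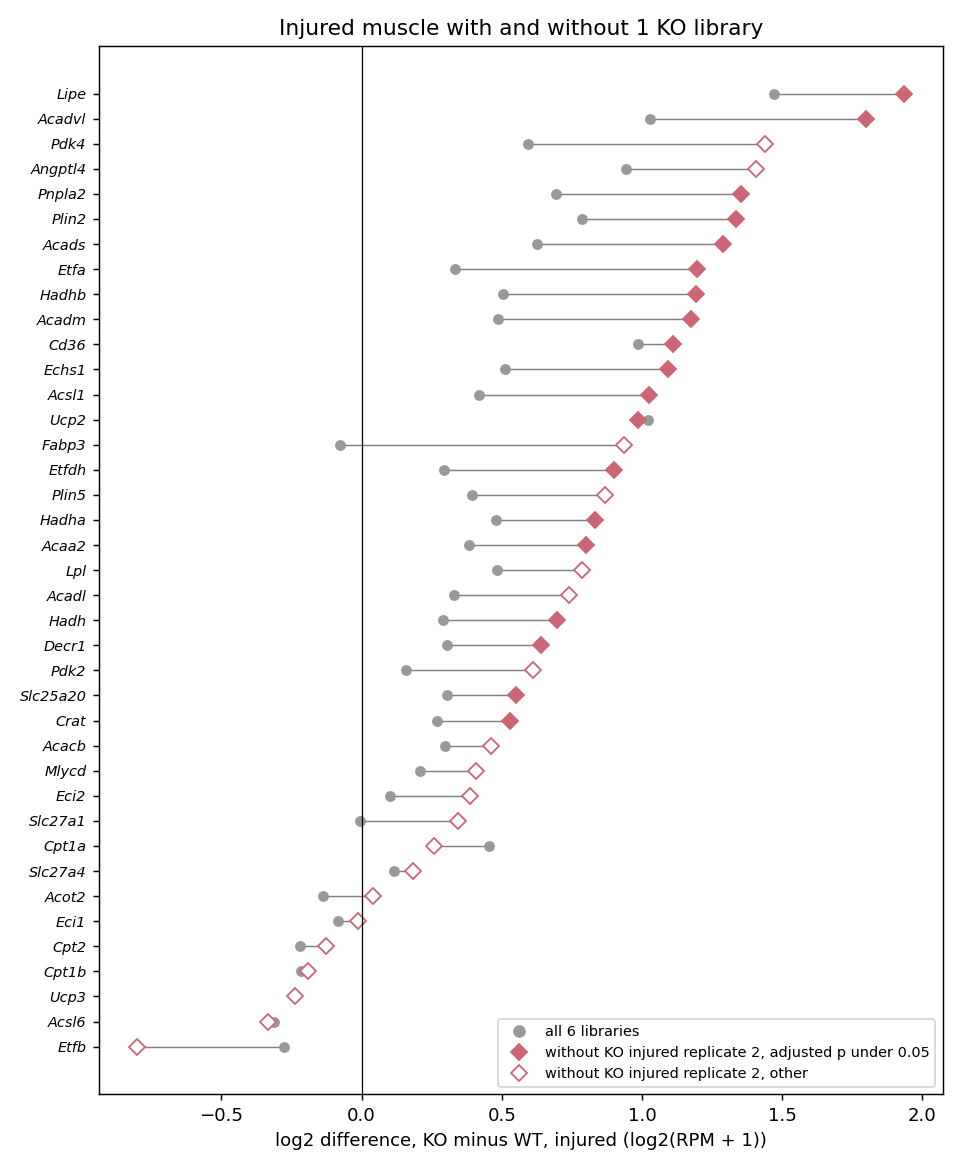
Log2 difference, KO minus WT, in injured muscle for the 39 genes tested in both fits. Grey circles use all 6 libraries and diamonds leave out KO injured replicate 2; filled diamonds passed a limma adjusted p of 0.05 (19 genes, all above 0). Fabp3, Etfa and Pdk4 shifted most upward, and Etfb shifted downward.

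KO uninjured replicate 2 had the lowest value of its group for 38 of 40 members (68.4% of all genes), the exceptions being Etfb and Slc25a20. KO injured replicate 2 was lowest for 34 of 40 (45.8% of all genes). KO uninjured replicate 3 was the highest of its group for 36 members and KO injured replicate 1 for 29. As a median deviation from each gene's mean over the 12 libraries, the members stood at 0.11 to 0.63 in the 4 libraries of KO replicates 1 and 3, at -0.68 and -0.51 in those of KO replicate 2, and at -0.50 to 0.05 in WT. The median of all genes stood at -0.10 and 0.10 in KO uninjured replicates 1 and 3, at 0.09 in each of the 3 KO injured libraries, at -0.57 in KO uninjured replicate 2, and at -0.20 to 0.15 in WT. The 4 high libraries had the 4 lowest mitochondrial shares (3.63 to 6.76%), and the 3 libraries where the members were lowest had shares of 15.3, 22.3 and 23.2%. When the mitochondrial share was added as a covariate to a model of the 12 libraries, an alternative chosen after seeing the data, the uninjured median of the members was -0.29, level with all genes (-0.30), and 3 of 40 members passed as lower in KO (Fabp3, Etfa and Hadhb), where 5.34% of all 13337 genes passed in either direction. In injured muscle the median was then 0.26 and no member passed, where 1.13% of all genes did. The share was itself lower in 4 of 6 KO libraries than in any WT library, so share and genotype cannot be fully told apart in this fit.

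**Figure D5:**
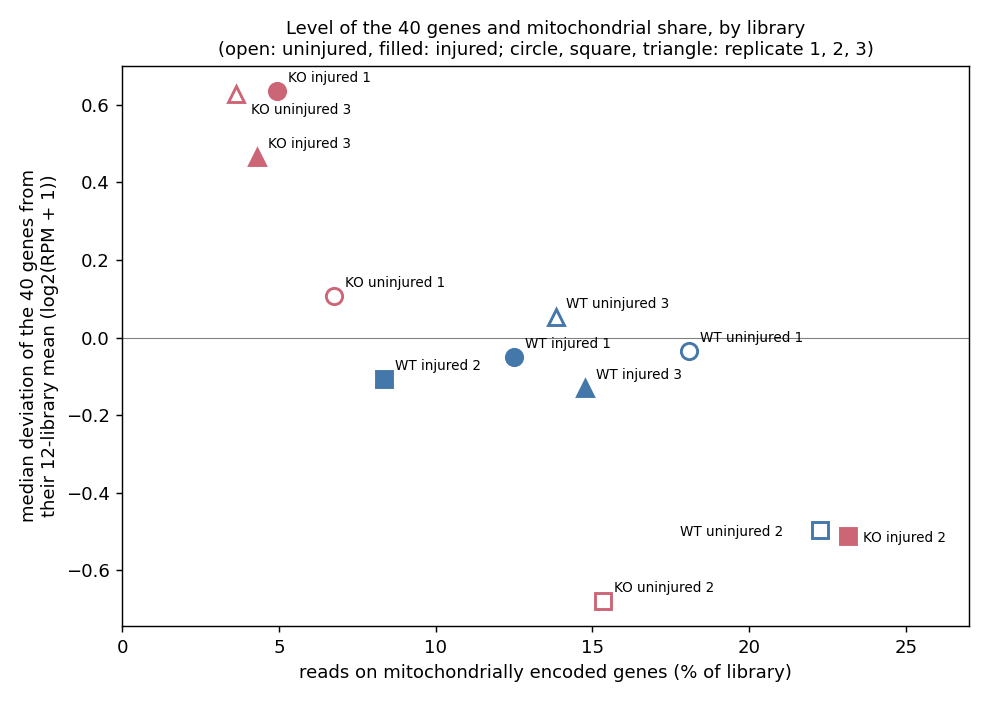
Median deviation of the 40 genes from their mean over 12 libraries, on the log2(RPM + 1) scale, against the percent of reads on mitochondrially encoded genes, for each library. Colour gives the genotype (KO red, WT blue), open symbols uninjured and filled symbols injured muscle. KO replicates 1 and 3 sit at the upper left (3.63 to 6.76%), and KO replicate 2 with WT uninjured replicate 2 at the lower right.

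Injury was compared with no injury within each genotype. No member passed an adjusted p of 0.05 in WT or KO muscle, and none had an unadjusted p under 0.05, in the limma fit of all 12 libraries; edgeR and DESeq2 called none either. Among all 13337 genes 0% passed in each genotype, and 1.29% (WT) and 3.51% (KO) had an unadjusted p under 0.05. The interaction of genotype and injury called no member, with none at an unadjusted p under 0.05, against 0% and 1.56% of all genes. The members' median change was 0.08 in WT (all genes 0.09) and 0.16 in KO (all genes 0.29), and under TMM scaling the KO median was -0.11. The animals of 1 genotype did not go the same way. In KO animal 1, 38 of 40 members were higher in the injured library (median change 0.48; 66.1% of all genes higher), and in KO animal 3 only 6 of 40 were (-0.16; 44.9%). KO animal 2 and WT animals 1, 2 and 3 had 27, 26, 27 and 12 members higher, where 78.3%, 54.1%, 62.9% and 48.8% of all genes were. Slc27a4 and Mlycd were higher in the injured library of all 6 animals, by 0.02 to 0.42 and 0.01 to 0.59 on the log2 scale.

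Other genes of fatty acid and lipid metabolism, 100 in 7 lists, were read beside the members. None of them passed an adjusted p of 0.05 in limma in either KO comparison. In uninjured muscle the lipid droplet partners and triglyceride synthesis list had 4 of 21 tested genes higher in KO and 1 lower (unadjusted p under 0.05), and the list of nuclear receptors and coactivators 3 of 13 higher and 0 lower. The other 5 lists (carnitine supply, other dehydrogenases, peroxisomal oxidation, ketone bodies, malonyl-CoA and fatty acid synthesis) had 0 higher and 4 lower of 61. In injured muscle the 7 lists had 6 higher and 2 lower of 93. Among all genes tested 3.53% were higher and 10.7% lower at that level in uninjured muscle, and 5.06% and 5.26% in injured muscle. Those with a q-value under 0.05 in the authors' deposited tables were Dgat2, Pparg, Cidea and Rxra, all higher in KO. Dgat2, which makes triglyceride, was at 11.7, 18.1 and 43.4 RPM in uninjured WT, 135, 46.2 and 139 RPM in uninjured KO, 19.7, 8.76 and 27.5 RPM in injured WT and 235, 23.7 and 91.9 RPM in injured KO muscle, with authors' q-values of 0.000395 and 0.0279. Pparg, the receptor that drives fat cell formation, was at 5.5, 3.19 and 7.74 RPM in uninjured WT, 20.5, 10.5 and 18.9 RPM in uninjured KO, 3.9, 1.98 and 4.17 RPM in injured WT and 29.4, 10.9 and 13.4 RPM in injured KO muscle, with q-values of 0.0062 and 0.000201. Cidea, a droplet protein of brown fat, was at 6.66, 7.45 and 34.2 RPM in uninjured WT, 67.6, 32.7 and 73.3 RPM in uninjured KO, 12.5, 1.2 and 10.6 RPM in injured WT and 91, 4.7 and 43.6 RPM in injured KO muscle, and Rxra, the partner of the PPAR receptors, at 62.6, 76.6 and 90.1 RPM in uninjured WT, 152, 116 and 200.4 RPM in uninjured KO, 69.5, 99.99 and 73.4 RPM in injured WT and 172, 82.4 and 175 RPM in injured KO muscle. These 2 were under 0.05 in the uninjured table alone (q 0.0162 and 0.00594). The interaction with injury did not pass for Cidea (log2 value -0.05) or Rxra (-0.25), with a limma adjusted p of 0.9999 for each. Pparg is among the adipocyte markers above. Acot13, a thioesterase, was lower in all KO libraries of both states, at 189, 205 and 229 RPM in uninjured WT, 149.7, 146 and 98.2 RPM in uninjured KO, 203, 164 and 215 RPM in injured WT and 112, 155 and 106 RPM in injured KO muscle, with log2 differences of -0.68 and -0.65 and limma adjusted p values of 0.284 and 0.385.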

How the data were processed

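RNA-seq came from total RNA (Trizol, TruSeq RNA v2), per the labels' protocols. The submitters' processing notes name HISAT2 2.1.0, SAMtools, featureCounts, DESeq2, Bowtie 1.1.0 and MACS2 2.1.0.20140616, and the builds mm10 and GRCm38.p5, without roles; strand use and the treatment of shared reads are not given in the sources used here. The authors deposited RPM per gene, summing to 1000000 in each of 12 libraries, and tables of log2 fold changes (WT over KO, turned here to KO over WT) with p-values and q-values. Whole reads could be recovered within 0.1 read for 100% of the nonzero values checked. The highest values of each library, some members among them, were rounded without this check. The peak list, per the file headers from MACS2, gives the authors' pileup signal, fold enrichment (a ratio) and −log10 p and q; 1 ChIP library means peaks have no replicate.

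Genes at 1 RPM or more in 3 fitted libraries were tested with limma 3.58.1 (R 4.3.3) on log2(RPM + 1), two-sided, with Benjamini-Hochberg adjustment over all genes and a threshold of 0.05. KO against WT used the 6 libraries of each state, and injury and the interaction all 12. The libraries of 1 animal were not paired in these fits, and the animal as a block was an alternative for injury and the interaction. Nothing in the labels says that libraries of a group are separate cultures or litters, and p-values then measure the spread between these libraries. A fold on this scale understates changes of low genes. Alternatives were upper quartile, TMM and outside-mitochondrial scaling, a pseudocount of 0.1, other filters, the replicate block, all 12 libraries, leaving out each library, edgeR 4.0.16 (55 uninjured and 33 injured genes called) and DESeq2 1.42.0 (663 and 427) on recovered reads; the mitochondrial share as a covariate was added after seeing the data. On data simulated for the uninjured comparison (200 of 12469 genes changed 4-fold), limma, edgeR and DESeq2 each called all 200, with 6, 9 and 26 false calls, so that 2.91%, 4.31% and 11.5% of calls were false. The simulated libraries had the same spread setting for every gene, no outlier library and no shift in mitochondrial share. These rates therefore need not hold for the real libraries. Libraries with 1 number are read as 1 animal; their deviations correlated at 0.28, -0.23 and 0.02 in WT and 0.02, 0.50 and 0.63 in KO. Promoter windows are from RefSeq (GRCm38.p6; 34 members matched).

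The members and lists were chosen with earlier results of these data known. Members were named if they passed in any limma comparison or had an authors' q under 0.05, had an unadjusted p under 0.05 in both KO comparisons, or had the largest or smallest difference of their role in either; genes of other lists were named by the first 3 of these. Added to these were Pdk2, Plin2, Crat, Acadm, Pdk4, Hadha and Hadhb, chosen after their values were seen, and the members nearest to Myf6 peaks.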

Additional observations from a re-analysis of the deposited data

Results flagged for a closer look

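Acot1, the cytosolic thioesterase, was lower in the injured than in the uninjured library of all 3 WT animals and higher in all 3 KO animals. The changes on the log2(RPM + 1) scale were -0.07, -0.41 and -0.12 in WT and 0.29, 1.07 and 0.18 in KO, a difference of 0.71. The interaction test did not pass (limma adjusted p 0.9999). Acot1 lay between 0 and 1.15 RPM, with 0 to 52 reads a library, and may share reads with Acot2. It passed the filter of 1 RPM only through the injured KO libraries.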

How the results depend on the processing

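The median difference of the members, 0.14 in uninjured and 0.33 in injured muscle, ranged over the alternatives from -0.29 (covariate) to 0.53 and from 0.11 to 0.79, turning sign in uninjured muscle. The counts of 0 called in the injury comparisons and the interaction held in all 21 alternatives each. In uninjured muscle the count of called members, 0, was 2 with the authors' q-values, 4 with DESeq2 and 3 with the mitochondrial share as a covariate (added after seeing the data). The 3 members at an unadjusted p under 0.05 became 8 with upper quartile scaling, 11 with TMM, 9 with edgeR, 10 with DESeq2 and 12 with the covariate. Among all genes 14.2% had such a p in the reported fit, and 17.8%, 17.9%, 16.5%, 18.0% and 28.0% in these 5, and with the covariate 3130 of those 3734 genes were lower in KO. In injured muscle DESeq2 called 2, and the covariate gave 8 at an unadjusted p under 0.05 (10.9% of all genes). The cause was not tested.

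The replicate numbers did not pair the KO and WT libraries, whose deviations correlated at 0.04, 0.26 and 0.37 in uninjured and -0.45, -0.60 and -0.30 in injured muscle. With the replicate number as a block, 2 members were called in uninjured muscle (Lipe, adjusted p 0.0254, and Pnpla2, 0.0200, limma) and 8 had an unadjusted p under 0.05, while 6.04% of all genes were called and 23.9% had such a p. The block changed no other call.

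Signs were less stable: of the members followed, 17 of 27 in uninjured and 6 of 28 in injured muscle had another sign in at least 1 alternative. Log2 differences with a reversed sign in uninjured muscle were, with upper quartile scaling, Acadm 0.0159 and Cd36 0.0169; with TMM, Acadm 0.0907, Cd36 0.092, Cpt2 0.0104, Eci1 0.0695 and Slc27a1 0.00521; with scaling to reads outside mitochondrial genes, Acsl1 -0.0466, Etfa -0.0389, Hadhb -0.12 and Pdk4 -0.15; with a pseudocount of 0.1, Acadvl -0.0324. With the covariate they were Acads -0.24, Acadvl -1.55, Acsl1 -0.93, Etfa -1.48, Etfb 0.38, Fabp3 -1.13, Hadha -0.11, Hadhb -1.24, Pdk2 -0.0145, Pdk4 -1.53 and Plin5 -0.36. With edgeR they were Acadm 0.50, Cd36 0.15, Eci1 0.0833 and Slc27a1 0.0109, and with DESeq2 Acadm 0.50, Cd36 0.15, Cpt2 0.00122, Eci1 0.092 and Slc27a1 0.0157. In injured muscle they were Fabp3 0.30 and Slc27a1 0.0368 with edgeR and Fabp3 0.31 and Slc27a1 0.0492 with DESeq2.

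Leaving out 1 library at a time gave 1 to 10 uninjured members with an unadjusted p below 0.05, and 0 to 19 called and 2 to 29 at that level in injured muscle, the highest without KO replicate 2. All genes at that level ran from 7.26% to 19.1% in uninjured muscle (16.8% without KO replicate 2) and from 5.24% to 36.9% in injured muscle. Log2 differences that crossed 0 in uninjured muscle ran from -0.999 to 0.85 for Acadm, -1.23 to 1.70 for Acadvl, -0.49 to 0.71 for Acsl1, -0.52 to 0.36 for Cd36, -0.065 to 0.55 for Cpt1a, -0.53 to 0.81 for Etfa, -0.086 to 1.02 for Fabp3, -0.61 to 0.75 for Hadhb, -0.94 to 0.92 for Pdk4 and -0.41 to 0.21 for Slc27a1. In injured muscle they ran from -0.42 to 0.076 for Acot2, -0.12 to 1.196 for Etfa, -0.80 to 0.0067 for Etfb, -0.59 to 0.94 for Fabp3, -0.098 to 0.61 for Pdk2 and -0.37 to 0.35 for Slc27a1. Of the 4 members with a Myf6 peak within 5000 bases, 1 remained with peaks of at least 10-fold enrichment. Within 20000 bases 14 of 34 members had a peak at the authors' threshold (22.0% of all genes). At 10-fold enrichment or more 4 of 34 did (6.89%). Depth limits Acot1 and the shallow WT uninjured replicate 2, where 3 reads are worth 1.6 RPM.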
